A study of Mus musculus with 14 samples.

Results

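Spontaneous liver tumours labelled Regress were compared with liver tumours labelled Grow, 4 and 6 samples of the 14 in the series, each group being all tumours with that word in the tissue label. The tumours are hepatocellular carcinomas of male C3HeB/FeJ mice, an inbred strain prone to liver tumours. The animals were screened for tumours at 10 months of age, were injected on 5 days of each 28-day cycle for 6 cycles, and were 18 months old at collection. Regress 1 and Regress 3 came from mice given TMZ (temozolomide, which methylates DNA) at 31 mg/kg. Regress 2 received phosphate citrate buffer and Regress 4 the solvent DMSO. Grow 2, Grow 3 and Grow 4 received TMZ at 22 mg/kg together with SAHA (suberoylanilide hydroxamic acid, a histone deacetylase inhibitor) at 85 mg/kg, and Grow 6 received SAHA alone at 100 mg/kg. Grow 1 and Grow 5 received DMSO. The 4 normal livers, from mice given buffer, entered the fit and their range is quoted at some genes, but they are not a side of the comparison. How growth or regression was scored, and which tumours share an animal, the labels do not say, so the p-values speak only for the spread among the samples at hand, part of which may be technical. No Regress tumour received SAHA, so that drug and the Grow label cannot be told apart in Grow 2, 3, 4 and 6.

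A hepatocellular carcinoma is built of transformed hepatocytes and of the cells around them. Stellate cells and fibroblasts lay down collagens and proteoglycans, Kupffer cells are the resident macrophages of the liver, and other macrophages and neutrophils enter from blood. Growth of the tumour cells is driven through ERK and beta-catenin signalling and shows in genes of DNA replication and mitosis. Differentiated hepatocytes carry out the urea cycle, bile acid and lipid metabolism and secrete most plasma proteins, functions that are commonly reduced in tumours.

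RNA was sequenced and the values are estimated counts, summed per gene and expressed as CPM, which are counts scaled to a common library size. Libraries held 4707063 to 6167691 counts in Regress tumours and 5898450 to 13394301 counts in Grow tumours. The hepatocyte product albumin (Alb) took 4.18% to 15.6% of the counts in Regress and 3.16% to 17.6% in Grow tumours, so all 10 carry the defining marker of liver tissue. Several libraries stood apart. Regress 4 had a Spearman correlation of log2 CPM of 0.708 to 0.795 with the other Regress tumours but 0.816 to 0.926 with the Grow tumours. Regress 1 correlated at 0.806 to 0.952 with normal livers, and its Afp and Gpc3, markers of liver tumours, were at 0.591 and 0.197 CPM, against 0.299 to 4.51 and 0.876 to 1.93 CPM in normal liver. Grow 3 and Grow 4 correlated at 0.987, above every other pair of one group (0.708 to 0.960), but their counts differed by more than sampling noise, with a chi-square of 19.9 per degree of freedom. Regress 2 bears the same sample code as Normal 4. Libraries also differed in how their values ran with transcript length. The slope of the log2 CPM deviation on log2 length was -0.36, -0.39, -0.48 and 0.40 in Regress 1 to 4, and lay between -0.14 and 0.42 in the Grow tumours. In Regress 1 to 3 short transcripts were thus relatively high, and in Regress 4, as in most Grow tumours, relatively low. Many results are given below with and without Regress 4, but few without Regress 1, Regress 2 or Grow 3 and 4.

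No gene passed the test between all Regress and all Grow tumours. Of 12300 genes tested with edgeR's quasi-likelihood test, 0 were called higher (0%) and 0 lower (0%) at an adjusted p under 0.05, the lowest adjusted p being 0.416. At an unadjusted p under 0.05, 850 genes were higher (6.91%) and 380 lower (3.09%) in Regress tumours. With DESeq2's size factors in the same test this split was 1083 higher and 268 lower. Values of the groups did not overlap for 46 genes in which every Regress library lay above every Grow library (0.374%) and for 67 in which every one lay below (0.545%). Once the trend of values with transcript length was removed from each library, 49 lay above and 31 below, of which only 12 and 10 were among those 46 and 67. With so few libraries, some genes are free of overlap through the order of the libraries alone. Lack of overlap at a gene is thus no support by itself. Overlap is given below for the values without that correction. Among those above were the matrix genes Dpt and Lum, and among those below was Cflar, an inhibitor of death receptor signalling. DESeq2 called 29 genes higher and 2 lower, and limma-voom called 0. The count turned on Regress 4. Without it, edgeR called 597 genes higher (4.77%) and 652 lower (5.21%) of 12520, whereas leaving out any other single library left 0 called. These calls moved with transcript length. The genes called higher without Regress 4 had a median transcript of 1608 bases and those called lower 5328 bases, against 2894 bases for all genes tested. With the length trend of each library removed as well, 237 genes were called higher (2.05%) and 80 lower (0.691%) of 11573, of which 174 and 64 were also called before that correction. The calls also depended on the 3 Regress tumours then left, as 981 genes were called without Regress 1 and 4, 41 without Regress 2 and 4 and 3 without Regress 3 and 4. Removing 2 libraries or the length trend together with Regress 4 was tried after the data were seen. Regress 4 correlated less with the other Regress tumours than with the Grow tumours, so leaving it out favours a difference between the groups. Adjusted p-values given below without Regress 4 hold only for Regress 1 to 3 against Grow. They come from tumours that are also in the fit of all tumours, so they are no separate support for any gene. This applies most to genes in which Regress 4 goes the other way. In what follows, values in brackets after the CPM are the log2 fold change of Regress over Grow and its adjusted p in the fit of all tumours, none of which passed. Genes outside the naming rule were chosen after their values were seen, among them Tcf21, Il34, Adamdec1, Mustn1, Cers4, Gadd45a, the heat shock genes other than Hsph1 and several members of the lists.

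**Figure D1:**
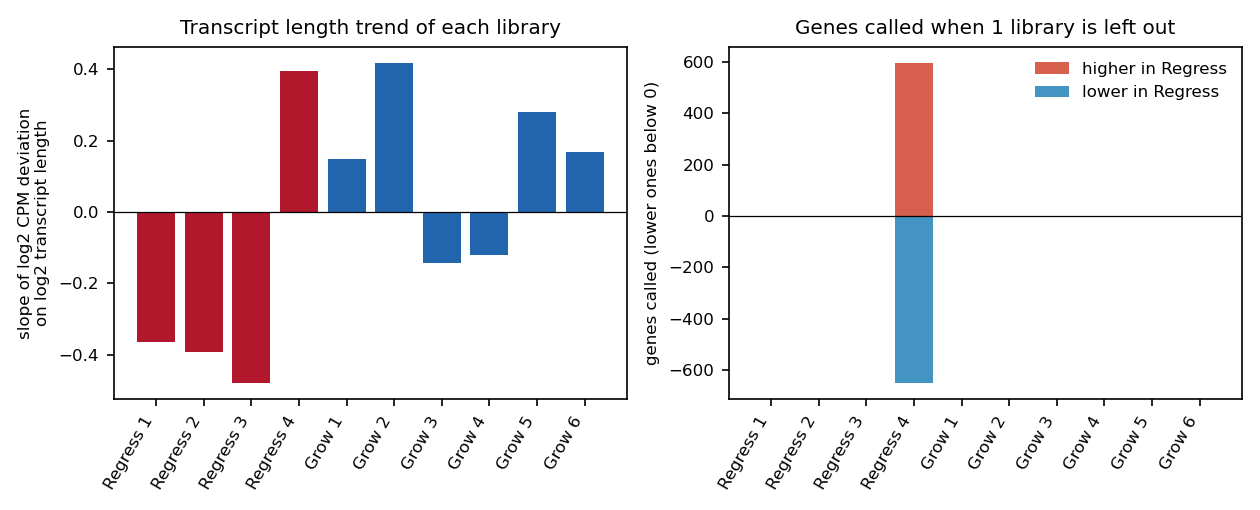
Left, slope of each tumour library's deviation in log2 CPM on log2 transcript length, Regress (red) before Grow (blue). Right, number of genes called by edgeR at an adjusted p under 0.05 when that library is left out, higher in Regress above 0 and lower below 0. Regress 4 has a slope of 0.40 while the other Regress libraries lie at -0.36 to -0.48, and only its removal gives calls, 597 higher and 652 lower.

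The 6 genes with the smallest p-values on the higher side are described first. Dermatopontin (Dpt), a matrix protein that binds decorin, stood at 3.35, 8.70, 17.0 and 26.7 CPM in Regress 1 to 4, against 0.343 to 2.49 (median 1.35) CPM in the Grow tumours. All 4 Regress tumours lay above all 6 Grow tumours and above the normal livers (0.876 to 2.18 CPM), with a log2 fold change of 3.18 ± 0.55 SE (adjusted p = 0.416). Lumican (Lum), a proteoglycan that orders collagen fibrils, was at 9.65, 4.74, 20.1 and 64.8 CPM in Regress and 0.799 to 4.06 (median 3.58) CPM in Grow tumours, again without overlap (3.07 ± 0.60 SE, adjusted p = 0.416). Decorin (Dcn), the related proteoglycan that binds collagen and TGF-beta, was at 301, 70.0, 147 and 207 CPM in Regress tumours, against 26.1 to 72.0 (median 42.1) CPM in Grow tumours. Only Regress 2 fell within the Grow range, at its edge, and 3 Regress tumours lay within or above the 132 to 294 CPM of normal liver (2.07 ± 0.38 SE, adjusted p = 0.416). Desmin (Des), the intermediate filament of muscle and stellate cells, was at 3.15, 2.77, 9.01 and 11.4 CPM in Regress and 1.47 to 1.89 (median 1.84) CPM in Grow tumours (1.91 ± 0.37 SE, adjusted p = 0.416). The narrow Grow range lay wholly below the Regress values and below normal liver (3.69 to 4.80 CPM). Gelsolin (Gsn), which severs actin filaments, was at 6.30, 8.70, 20.1 and 64.9 CPM in Regress and 3.56 to 5.53 (median 4.63) CPM in Grow tumours (2.47 ± 0.50 SE, adjusted p = 0.474). Its values also did not overlap, and the lead was widest in Regress 4. Gdf2, which encodes the stellate cell ligand BMP9, was at 9.85, 5.93, 9.27 and 12.7 CPM in Regress tumours, against 1.61 to 5.73 (median 2.38) CPM in Grow tumours and 11.7 to 19.1 CPM in normal liver (1.64 ± 0.34 SE, adjusted p = 0.474). These 6 genes were each called by DESeq2 on all tumours (adjusted p from 0.000153 for Dpt to 0.00707 for Gdf2). Without Regress 4, edgeR gave an adjusted p of 0.0291 for Dpt, 0.0291 for Dcn, 0.0319 for Des, 0.0331 for Lum, 0.0345 for Gsn and 0.0359 for Gdf2. With the length trend removed as well these were 0.0345, 0.0491, 0.0345, 0.0444, 0.0371 and 0.0345, so each remained called.

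Markers of stellate cells and fibroblasts were also described as a list. Of its 20 genes, 17 were tested and 0 called. At an unadjusted p under 0.05, 11 were higher and 0 lower in Regress tumours, beside 6.91% and 3.09% of all genes. The median log2 fold change was 1.87 (1.69 with the length trend removed), against -0.01 over all genes tested. Without Regress 4 the median of the list was 0.22, with 4 members called higher, beside 4.77% of all genes. The summed level of the list was 473, 710.1, 655 and 2412 CPM in Regress 1 to 4, against 293 to 1189.6 CPM in Grow tumours, so the groups overlapped in the sum. In bulk tissue, more cells of a type and more RNA per cell cannot be told apart. Members fell into separate patterns. The collagens were highest in Regress 4. Col1a1, a chain of type I collagen, stood at 0.985, 2.77, 5.15 and 186 CPM in Regress and 2.24 to 9.59 (median 4.46) CPM in Grow tumours, so its log2 fold change of 3.20 became -0.86 without Regress 4. The partner chain Col1a2 was at 1.58, 6.13, 12.4 and 201 CPM in Regress and 5.14 to 9.60 (median 8.11) CPM in Grow tumours, with Regress 3 above the Grow range as well. Col3a1, the chain of type III collagen, was at 11.8, 30.1, 59.0 and 266 CPM in Regress and 12.9 to 28.8 (median 19.6) CPM in Grow tumours, with Regress 2, 3 and 4 above the Grow range. Actin-binding and receptor genes were less bound to one tumour. Transgelin (Tagln), an actin-binding protein of contractile cells, was at 7.29, 16.8, 60.8 and 32.4 CPM in Regress and 3.20 to 13.4 (median 8.72) CPM in Grow tumours, with Regress 2, 3 and 4 above every Grow tumour. Smooth muscle actin (Acta2), the marker of activated stellate cells, was at 0.394, 2.97, 18.3 and 30.3 CPM in Regress and 2.74 to 6.52 (median 3.94) CPM in Grow tumours, and only Regress 3 and 4 exceeded the Grow range. The PDGF receptor Pdgfra was at 7.29, 1.78, 4.12 and 19.6 CPM in Regress tumours, against 0.590 to 3.72 (median 2.06) CPM in Grow tumours. Here Regress 1, 3 and 4 exceeded the Grow range, and Regress 2 lay inside it.

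**Figure D2:**
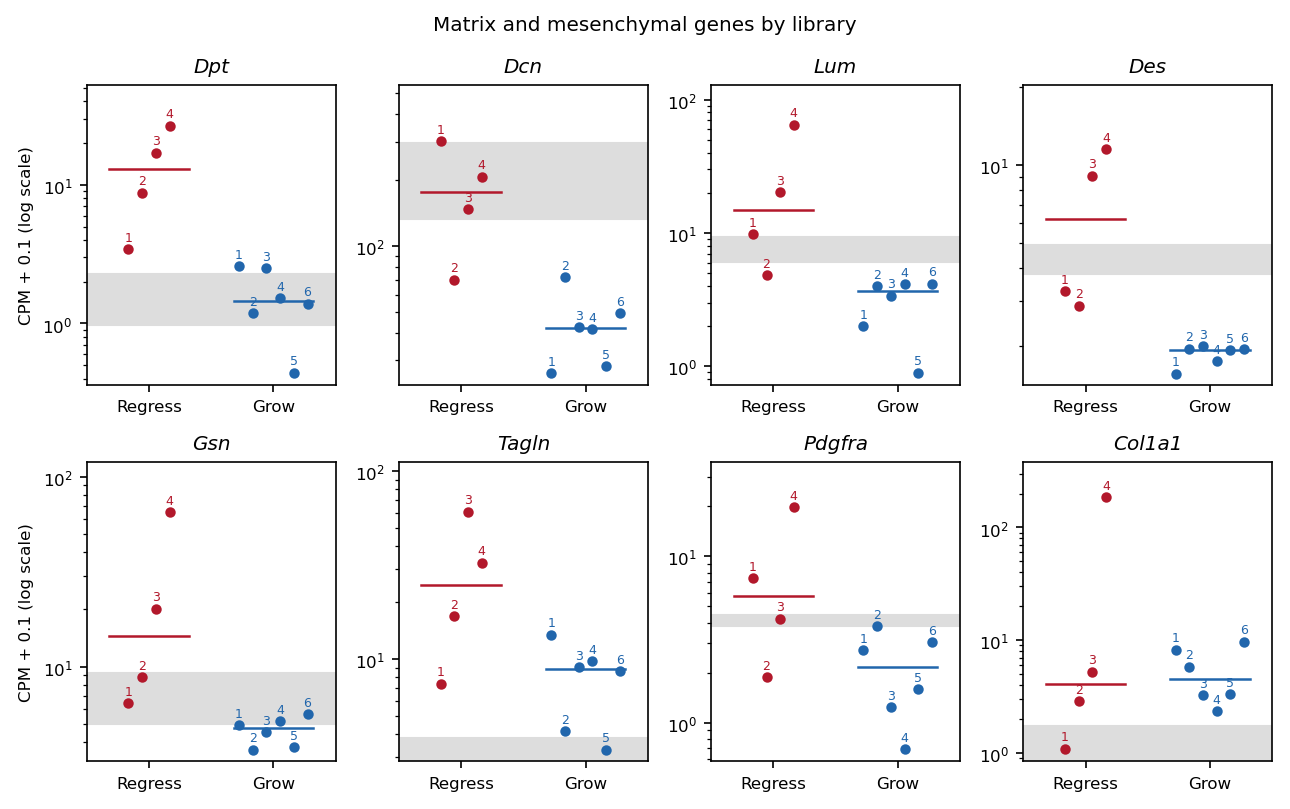
CPM plus 0.1 on a log scale for 8 matrix and mesenchymal genes in Regress (red) and Grow (blue) tumours. Points are libraries numbered by replicate, lines are group medians and the grey band is the range of the 4 normal livers. Dpt, Lum, Des and Gsn have all Regress points above all Grow points, while Col1a1 is high only in Regress 4.

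Other mesenchymal genes, outside the list, showed like values. Cytoglobin (Cygb), a haem protein that marks quiescent stellate cells, was at 5.52, 4.74, 6.18 and 36.7 CPM in Regress and 2.28 to 4.06 (median 2.97) CPM in Grow tumours (2.14 ± 0.51 SE, adjusted p = 0.474). The groups did not overlap, but Regress 4 stood far above the other Regress tumours. Tcf21, a transcription factor of mesenchymal precursors, was at 3.94, 0.593, 4.38 and 6.77 CPM in Regress and 0.343 to 1.08 (median 0.446) CPM in Grow tumours. The membrane protein gene Pmp22 was at 3.55, 2.77, 10.6 and 15.0 CPM in Regress and 1.10 to 3.30 (median 1.63) CPM in Grow tumours (2.04 ± 0.48 SE, adjusted p = 0.474). In both, all Regress tumours but Regress 2 exceeded the Grow range. Pdlim2, a PDZ and LIM domain protein that promotes the breakdown of NF-kappaB p65, was at 1.77, 2.57, 11.3 and 5.36 CPM in Regress and 0.343 to 1.65 (median 1.13) CPM in Grow tumours (2.24 ± 0.52 SE, adjusted p = 0.474). Mustn1, a small nuclear protein of muscle and skeletal tissue, was at 6.30, 1.78, 2.58 and 5.78 CPM in Regress and 0.114 to 1.55 (median 0.720) CPM in Grow tumours. For Pdlim2 and Mustn1 the groups did not overlap, at low levels throughout. Among the smooth muscle and mesothelium markers, 4 of 9 were tested. All 4 were higher at an unadjusted p under 0.05, beside 6.91% of all genes, and their median log2 fold change was 1.84. Without Regress 4 the median was 0.75, with 1 member called higher. Their summed level was 9.06, 5.34, 37.3 and 54.5 CPM in Regress 1 to 4, against 4.57 to 8.13 CPM in Grow tumours. The part of these cells in the higher matrix genes was not tested.

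Enzymes that break down matrix and their inhibitors gave 3 of 12 tested genes higher at an unadjusted p under 0.05, beside 6.91% of all genes. The median log2 fold change of the list was 0.14. Cathepsin K (Ctsk), a collagenase, was at 0.591, 3.36, 3.86 and 14.4 CPM in Regress and 0.155 to 1.51 (median 1.05) CPM in Grow tumours (2.50 ± 0.73 SE, adjusted p = 0.474). The inhibitor Timp2 was at 12.02, 4.35, 20.1 and 94.5 CPM in Regress and 7.19 to 15.3 (median 9.10) CPM in Grow tumours, and the macrophage elastase Mmp12 at 1.18, 21.4, 12.4 and 83.8 CPM in Regress and 2.63 to 11.8 (median 8.30) CPM in Grow tumours. Regress 4 held the highest value of all 10 tumours in each of the 3. The median of this list was -0.04 without Regress 4. The TGF-beta response list had a median of 0.11 that became -0.39 without Regress 4. In it 2 of 14 were higher at an unadjusted p under 0.05, beside 6.91% of all genes. It was led by the transcriptional inhibitor Id3, at 96.1, 35.0, 57.2 and 32.0 CPM in Regress and 17.2 to 38.9 (median 22.6) CPM in Grow tumours. In the list of senescence genes 5 of 14 were higher at an unadjusted p under 0.05, beside 6.91% of all genes. The median log2 fold change of this list was 0.68. Without Regress 4 the median was 0.31 with 0 called, and it turned to -0.24 with the length trend removed as well. The smallest p of the list was that of Igfbp7, a secreted binding protein of insulin-like growth factors, at 34.5, 42.3, 69.8 and 122 CPM in Regress and 29.0 to 46.6 (median 37.3) CPM in Grow tumours. Only Regress 3 and 4 exceeded the Grow range.

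Macrophage markers differed among the Regress tumours. Clec4f, a lectin restricted to Kupffer cells in mice, stood at 114, 92.5, 233 and 16.9 CPM in Regress and 3.66 to 53.4 (median 19.8) CPM in Grow tumours (2.33 ± 0.65 SE, adjusted p = 0.474). Regress 1, 2 and 3 lay above every Grow tumour and within or above the 75.8 to 181 CPM of normal liver, while Regress 4 lay among the Grow tumours. Without Regress 4 it was called higher, with an adjusted p of 0.0307 and 0.0345 once the length trend was removed. The Kupffer markers as a list showed less of this. Of 12 tested, 1 was higher at an unadjusted p under 0.05, beside 6.91% of all genes. The median log2 fold change of the list was 0.27, and its summed level was 402 to 1095 CPM in Regress and 163 to 655 CPM in Grow tumours. Genes of lipid-laden, recruited macrophages were highest in Regress 4 and also high in Regress 3. Gpnmb, a lysosomal glycoprotein, was at 0.394, 4.55, 16.2 and 217 CPM in Regress and 0.619 to 9.96 (median 2.72) CPM in Grow tumours (3.95 ± 1.09 SE, adjusted p = 0.474). Trem2, a lipid-sensing receptor, was at 1.18, 2.57, 3.86 and 18.6 CPM in Regress and 0.155 to 2.34 (median 1.18) CPM in Grow tumours, and galectin-3 (Lgals3) at 8.27, 29.5, 46.1 and 64.3 CPM in Regress and 4.95 to 24.9 (median 18.1) CPM in Grow tumours. In all 3, Regress 1 was the lowest and Regress 4 the highest of its group, and Regress 1 lay within the Grow range or below it. Regress 3 exceeded every Grow tumour in all 3, and Regress 2 did so in Trem2 and Lgals3. For the list of recruited monocytes and macrophages, 3 of 12 were higher at an unadjusted p under 0.05, beside 6.91% of all genes. Its median log2 fold change was 0.53. The summed level of that list was 357, 248, 748 and 716 CPM in Regress 1 to 4, against 97.2 to 434 CPM in Grow tumours. Regress 3 was thus above the Grow range in the Kupffer and the recruited sums, and Regress 4 in the recruited sum alone. Il34, a ligand of the macrophage receptor Csf1r, was at 2.76, 1.98, 3.35 and 0.846 CPM in Regress and 0.236 to 0.922 (median 0.485) CPM in Grow tumours, with Regress 4 inside the Grow range (without it, adjusted p = 0.0286). Adamdec1, a metalloprotease-like protein made by tissue macrophages, was at 4.53, 1.19, 16.2 and 0.141 CPM in Regress and 0.126 to 0.825 (median 0.448) CPM in Grow tumours, above the Grow range in Regress 1, 2 and 3.

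The neutrophil protein S100a9 was at 40.4, 16.4, 22.9 and 0.988 CPM in Regress and 2.06 to 8.30 (median 3.71) CPM in Grow tumours (2.26 ± 0.74 SE, adjusted p = 0.474). Its partner S100a8 was at 22.1, 6.52, 11.6 and 0.423 CPM in Regress and 1.48 to 4.17 (median 2.54) CPM in Grow tumours. Both exceeded the Grow range in Regress 1, 2 and 3, and in Regress 4 they lay below it. Both have short transcripts, and with the length trend removed the log2 fold change of S100a9 was 0.99. Of the 12 neutrophil markers only 3 were tested, and the summed level was 7.05 to 72.1 CPM in Regress and 9.13 to 17.5 CPM in Grow tumours. Lymphocyte genes were near the limit of these libraries, with 3 T cell and 3 NK cell markers tested. The T cell kinase Lck was at 1.38, 2.57, 5.92 and 0.988 CPM in Regress and 0.155 to 1.89 (median 0.933) CPM in Grow tumours, and the NK cell receptor Klrk1 at 3.74, 1.98, 7.73 and 1.27 CPM in Regress and 0.310 to 3.69 (median 2.34) CPM in Grow tumours. Regress 3 was highest in both. Jchain, the joining chain of secreted antibodies, was at 16.7, 51.2, 33.0 and 42.7 CPM in Regress and 6.81 to 21.0 (median 18.1) CPM in Grow tumours (1.21 ± 0.43 SE, adjusted p = 0.474), with Regress 2, 3 and 4 above the Grow range. Summed B cell and plasma cell markers were 191 to 304 CPM in Regress and 107 to 235 CPM in Grow tumours. Antigen presentation (17 tested, median -0.05) and interferon response genes (24 tested, median -0.12) had medians near that of all genes. In the first, the class I gene H2-T23, which has near-identical relatives and is uncertain, was at 229.9, 579, 516 and 222 CPM in Regress and 204 to 322 (median 245) CPM in Grow tumours. In the second, the chemokine Cxcl10 was at 1.18, 2.77, 3.61 and 5.93 CPM in Regress and 2.63 to 13.1 (median 7.37) CPM in Grow tumours.

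Ductular markers overlapped between the groups as a list. Of 11 tested, 3 were higher at an unadjusted p under 0.05, beside 6.91% of all genes. The median log2 fold change of the ductular markers was 0.40, or -0.06 without Regress 4. Their summed level was 114, 508, 525 and 622 CPM in Regress 1 to 4, against 88.2 to 743 CPM in Grow tumours, with Grow 1 the highest of all. Of the members, 3 epithelial genes chosen after their values were seen were highest in Regress 3. The epithelial adhesion molecule Epcam stood at 0.985, 0.198, 56.4 and 4.37 CPM in Regress and 0.155 to 4.17 (median 1.52) CPM in Grow tumours. Keratin 19 (Krt19), the keratin of bile ducts, was at 0.197, 0.395, 34.8 and 2.54 CPM in Regress and 0.310 to 3.66 (median 1.08) CPM in Grow tumours, and the tight junction gene Cldn7 at 0, 6.72, 53.6 and 2.54 CPM in Regress and 0.922 to 7.88 (median 2.15) CPM in Grow tumours. Regress 3 was above every other tumour in all 3, and without it the log2 fold change of Epcam was -0.03 and that of Krt19 -0.60, against 2.97 and 2.48 with it. The metalloprotease Mep1b was likewise highest in Regress 3, at 1.38, 13.05, 97.3 and 18.1 CPM in Regress and 4.03 to 10.8 (median 8.90) CPM in Grow tumours, against 0.149 to 1.05 CPM in normal liver. Among endothelial genes, Clec4g, a lectin of sinusoidal endothelium, was at 79.8, 76.3, 90.1 and 16.9 CPM in Regress and 21.0 to 41.1 (median 30.9) CPM in Grow tumours (1.09 ± 0.37 SE, adjusted p = 0.474). Regress 4 was the exception again, and without it the gene was called higher (adjusted p = 0.0253), though not once the length trend was removed (adjusted p = 0.195). The Wnt amplifier Rspo3, made by central vein endothelium, was at 8.08, 1.19, 3.35 and 2.398 CPM in Regress and 0.220 to 2.63 (median 1.02) CPM in Grow tumours. The medians were -0.24 over 12 sinusoidal and -0.27 over 14 continuous endothelial genes.

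Several genes of the cell cycle were low in 3 Regress tumours and high in Regress 4. Ki-67 (Mki67), present in cycling cells, stood at 1.77, 0, 1.80 and 21.3 CPM in Regress 1 to 4, against 5.31 to 18.1 (median 10.5) CPM in Grow tumours. Regress 1, 2 and 3 lay below every Grow tumour, and Regress 4 lay above every one. The kinesin Kif20a, needed for cytokinesis, was at 0.591, 0.593, 1.55 and 6.35 CPM in Regress and 2.71 to 6.25 (median 4.64) CPM in Grow tumours, and Foxm1, the transcription factor of mitotic genes, at 0.591, 0, 0.258 and 3.95 CPM in Regress and 1.89 to 4.61 (median 2.45) CPM in Grow tumours. Again only Regress 4 was not below every Grow tumour, and it was near the highest of them. The spindle proteins Aspm and Incenp were at 0, 0, 0 and 3.95 CPM and 0.197, 0.198, 0 and 3.81 CPM in Regress tumours, against 1.14 to 2.05 (median 1.74) CPM and 2.00 to 4.00 (median 2.47) CPM in Grow tumours. The mitotic kinase Cdk1 was at 2.17, 1.98, 7.21 and 7.34 CPM in Regress and 2.94 to 7.66 (median 7.04) CPM in Grow tumours, and here only Regress 1 and 2 were below the Grow range. Over the 21 mitosis genes tested 0 were called, 0 reached an unadjusted p under 0.05, and the median log2 fold change was -0.57. Without Regress 4 the median was -1.70 and 4 were called lower, beside 5.21% of all genes. Among these 4 were Mki67 (adjusted p = 0.0407), Kif20a (adjusted p = 0.0291) and Foxm1 (adjusted p = 0.0437). With the length trend removed as well, Kif20a remained called (adjusted p = 0.0355) and Mki67 (adjusted p = 0.104) and Foxm1 (adjusted p = 0.0795) did not. Library by library, the median deviation of the list from the Grow mean was -1.76, -2.48, -0.70 and 0.56 in Regress 1 to 4, and -0.25 to 0.53 in Grow tumours. Replication genes had a median of -0.22 over 19, with the helicase subunit Mcm6 at 3.35, 1.78, 4.64 and 12.8 CPM in Regress and 7.28 to 13.7 (median 10.5) CPM in Grow tumours and Regress 1, 2 and 3 below every Grow tumour. The cyclin-dependent kinase inhibitor p27 (Cdkn1b) was at 35.7, 98.3, 61.8 and 19.6 CPM in Regress and 20.4 to 30.4 (median 23.4) CPM in Grow tumours (1.11 ± 0.35 SE, adjusted p = 0.474). It was high where Mki67 was low, and without Regress 4 it was called higher (adjusted p = 0.0291, and 0.0294 with the length trend removed). Cdkn1b had the smallest p of the G1 entry list, whose median ran the other way, at -0.21 over 14 tested genes. Without Regress 4 that median was -0.44, with 1 member called higher and 0 lower. Cyclin D1 (Ccnd1), which carries growth signals into the cycle, was at 11.4, 50.4, 21.6 and 46.0 CPM in Regress and 33.5 to 52.4 (median 39.5) CPM in Grow tumours, lower than the Grow range only in Regress 1 and 3.

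Genes downstream of ERK overlapped between the groups. Dusp6, the phosphatase that ERK induces as feedback, was at 37.4, 112, 74.2 and 123 CPM in Regress and 75.2 to 132 (median 89.5) CPM in Grow tumours, and Spry4, another feedback inhibitor, at 3.55, 11.3, 5.67 and 11.6 CPM in Regress and 2.15 to 18.9 (median 12.6) CPM in Grow tumours. Regress 1 had the lowest Dusp6 of the tumours, at 37.4 CPM against 18.1 to 22.3 CPM in normal liver. Of 12 ERK output genes tested, 0 reached an unadjusted p under 0.05 and the median log2 fold change was -0.19. Without Regress 4 the median of the ERK output genes was -0.605. The gene with the smallest p there was the phosphatase Dusp4, at 0.985, 3.56, 1.55 and 2.26 CPM in Regress and 0.884 to 2.20 (median 1.48) CPM in Grow tumours. Immediate early genes had a median of -0.19 over 14, and the summed level was 192 to 659.9 CPM in Regress and 294 to 658 CPM in Grow tumours. Ier2, one of them, was at 21.7, 61.1, 49.4 and 37.0 CPM in Regress and 12.5 to 39.3 (median 29.3) CPM in Grow tumours. The oncofetal proteins were spread over a wide range within each group. Alpha-fetoprotein (Afp) was at 0.591, 222, 62.8 and 430.4 CPM in Regress and 23.2 to 306 (median 76.0) CPM in Grow tumours, and the growth regulator glypican 3 (Gpc3) at 0.197, 48.6, 48.4 and 295 CPM in Regress and 10.7 to 291 (median 58.2) CPM in Grow tumours. Regress 1 was within or below the range of normal liver in both, and Regress 4 had the highest value of all tumours in both.

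Beta-catenin target genes divided the Grow tumours rather than the groups. Glutamine synthetase (Glul), a beta-catenin target of hepatocytes around the central vein, stood at 238, 22.7, 147 and 1519 CPM in Regress tumours. It was at 9962 and 9771 CPM in Grow 3 and 4, and at 31.4 to 159 CPM in the other Grow tumours. The aminotransferase Oat was at 209, 12.1, 185 and 52.5 CPM in Regress tumours, against 2424 and 2446 CPM in Grow 3 and 4 and 8.28 to 84.5 CPM in the others. The feedback gene Axin2 was at 2.96, 0.593, 0.773 and 26.1 CPM in Regress tumours, and at 61.4 and 57.1 CPM in Grow 3 and 4. In the other Grow tumours it was at 0.553 to 2.63 CPM. The receptor Lgr5 followed, at 0.985, 0.198, 0.773 and 11.3 CPM in Regress and 0.440 to 17.7 (median 1.48) CPM in Grow tumours. Regress 4 was the Regress tumour nearest to Grow 3 and 4 in Glul, Axin2 and Lgr5, but not in Oat. The list had a median log2 fold change of -1.26 over 20 tested genes, with 0 called and 0 at an unadjusted p under 0.05. Without the 4 Grow tumours given SAHA, which include Grow 3 and 4, the log2 fold change of Glul was 3.504 and that of Axin2 3.26. With all tumours these were -2.79 and -1.39. The remaining tumours given SAHA were low, within 31.4 to 159 CPM for Glul and 0.553 to 2.63 CPM for Axin2. Among Regress tumours, Regress 4 was highest in both, at 1519 and 26.1 CPM, against 22.7 to 238 and 0.593 to 2.96 CPM in the others. Whether the turn in sign belongs to SAHA or to Grow 3 and 4 themselves cannot be told apart. Leaving out Grow 3 and 4 alone was not tested. The Wnt receptor regulator Znrf3 had the smallest p of the list, at 5.12, 2.37, 3.86 and 9.31 CPM in Regress and 4.22 to 24.9 (median 7.79) CPM in Grow tumours.

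Some genes of differentiated hepatocytes lay above the Grow range in Regress 1 to 3 and others did not. The transcription factors of hepatocytes had a median log2 fold change of -0.33 over 19 tested, with 1 higher and 0 lower at an unadjusted p under 0.05. Over all genes these shares were 6.91% and 3.09%. Without Regress 4 the median of this list was -0.41, with 1 called higher and 2 lower, beside 4.77% and 5.21% of all genes. The member with the smallest p ran against that median. The bile acid receptor FXR (Nr1h4) stood at 108, 71.2, 73.1 and 27.2 CPM in Regress and 30.7 to 45.1 (median 41.8) CPM in Grow tumours. Regress 1, 2 and 3 lay above every Grow tumour and within the 67.6 to 113 CPM of normal liver, and Regress 4 lay below every Grow tumour. Argininosuccinate lyase (Asl), an enzyme of the urea cycle, was at 245, 267, 207 and 81.5 CPM in Regress and 76.3 to 136 (median 117) CPM in Grow tumours. Arginase (Arg1) was at 1700.0, 3299, 2927 and 279 CPM in Regress and 135 to 1084 (median 830.1) CPM in Grow tumours, and argininosuccinate synthase (Ass1) at 2619, 2607, 2509 and 479 CPM in Regress and 311 to 1566 (median 926) CPM in Grow tumours. All 3 were high in Regress 1, 2 and 3 and not in Regress 4. Cps1, the enzyme at the entry of the same cycle, was not, at 1079.6, 733, 922 and 658 CPM in Regress and 50.3 to 1782 (median 1163) CPM in Grow tumours. The periportal list had a median of 0.18 (0.41 without Regress 4). Of its 20 genes 3 were higher at an unadjusted p under 0.05, beside 6.91% of all genes. Without Regress 4, Nr1h4 (adjusted p = 0.0291) and Asl (adjusted p = 0.0307) were called higher, and Asl remained called with the length trend removed (adjusted p = 0.0345). Gnmt, a methyltransferase that uses up S-adenosylmethionine, was at 3452, 781, 1117 and 86.9 CPM in Regress and 207 to 579.5 (median 431) CPM in Grow tumours. The complement component C8b was at 354, 213, 355 and 42.7 CPM in Regress and 57.4 to 129 (median 78.5) CPM in Grow tumours, and Thrsp, a regulator of lipid synthesis, at 347, 347, 158 and 16.6 CPM in Regress and 34.9 to 101 (median 56.3) CPM in Grow tumours. In these 3, Regress 1, 2 and 3 lay above every Grow tumour and Regress 4 below every one.

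Some mitochondrial genes separated Regress 1 to 3 from the other tumours. Ndufb8, a subunit of complex I, stood at 509.7, 604, 647 and 45.0 CPM in Regress and 52.2 to 148 (median 95.9) CPM in Grow tumours (2.16 ± 0.60 SE, adjusted p = 0.474). Regress 1, 2 and 3 exceeded every Grow tumour and every normal liver (46.2 to 376 CPM), and Regress 4 was below all Grow tumours. Over 22 respiratory chain genes, 5 were higher at an unadjusted p under 0.05, beside 6.91% of all genes. The median log2 fold change of these 22 was 0.71, but 0.10 with the length trend removed. Ndufb8 itself remained called without Regress 4 after that correction (adjusted p = 0.0128). Bnip3, which marks mitochondria for removal in hypoxia, was at 1027, 1440.4, 822 and 45.7 CPM in Regress and 100.3 to 395 (median 184) CPM in Grow tumours (1.87 ± 0.70 SE, adjusted p = 0.474), with Regress 4 again the lowest of all. The mitochondrial deacetylase Sirt3 was at 142, 90.9, 91.4 and 16.6 CPM in Regress and 30.1 to 78.9 (median 46.6) CPM in Grow tumours. Mrpl40, of the mitochondrial ribosome, was at 27.8, 73.5, 68.0 and 12.4 CPM in Regress and 11.9 to 17.2 (median 14.8) CPM in Grow tumours (1.62 ± 0.38 SE, adjusted p = 0.474), and the esterase Iah1 at 116, 199, 183 and 36.4 CPM in Regress and 31.7 to 57.6 (median 46.5) CPM in Grow tumours (1.55 ± 0.36 SE, adjusted p = 0.474). Both have short transcripts, and removing the length trend took the log2 fold change of Mrpl40 to 1.13 and that of Iah1 to 0.90. The fucosidase Fuca2, with a long transcript, was at 12.02, 21.7, 31.4 and 12.6 CPM in Regress and 7.57 to 10.1 (median 9.58) CPM in Grow tumours (1.05 ± 0.25 SE, adjusted p = 0.474). Its groups did not overlap, and its log2 fold change was 1.603 with the trend removed. Cers4, a ceramide synthase, was also free of overlap, at 2.96, 3.36, 4.64 and 2.398 CPM in Regress and 0.943 to 1.84 (median 1.39) CPM in Grow tumours.

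Of the acute phase proteins, which hepatocytes secrete in inflammation, Saa1, Saa2 and Hamp were highest in Regress 1. Serum amyloid Saa1 stood at 755, 24.9, 43.3 and 12.4 CPM in Regress and 15.3 to 22.1 (median 18.6) CPM in Grow tumours (log2 fold change 3.47, and 0.51 without Regress 1), and Saa2 at 179, 6.52, 13.1 and 3.95 CPM in Regress and 3.72 to 6.82 (median 5.51) CPM in Grow tumours. The 2 genes are near-identical, so the split of reads between them is uncertain. Hepcidin (Hamp), the hormone of iron balance, was at 942, 268, 99.7 and 25.5 CPM in Regress and 9.43 to 91.0 (median 29.4) CPM in Grow tumours. In Saa1 and Hamp, Regress 1, 2 and 3 exceeded every Grow tumour. Of 20 acute phase genes tested, 6 were higher and 0 lower at an unadjusted p under 0.05, beside 6.91% and 3.09% of all genes. The median of the list was 0.61. Without Regress 4, 6 of its genes were called higher, beside 4.77% of all genes, but 0 with the length trend removed as well. Mup1, a male urinary protein with many near-identical copies, was at 37625 CPM in Regress 1 but 60.4 to 386 CPM in the other Regress tumours, against 6.67 to 1238 (median 199.8) CPM in Grow tumours. Apoc3, an apolipoprotein with a short transcript, was at 2291, 3444, 3909 and 731 CPM in Regress and 525 to 1701 (median 1180.2) CPM in Grow tumours, and its log2 fold change of 1.19 was 0.05 with the length trend removed. The lipid lists had 0 genes called and medians of either sign. That of fatty acid synthesis was -0.43, or -0.16 with the length trend removed, and that of fatty acid oxidation -0.15. Cholesterol synthesis had 0.17, which turned to -0.15 without Regress 4, and its kinase Pmvk was at 144, 123, 76.7 and 54.3 CPM in Regress and 37.4 to 84.1 (median 57.8) CPM in Grow tumours. Cyp4a14, a fatty acid hydroxylase induced through PPAR alpha and similar to its neighbours, was at 0.394, 0.791, 0.258 and 1.13 CPM in Regress tumours, against 40.9 and 41.9 CPM in Grow 3 and 4 and at most 1.66 CPM in the other Grow tumours. Pparg, the receptor of fat storage, was at 0.985, 1.38, 1.29 and 1.83 CPM in Regress and 1.03 to 12.9 (median 1.56) CPM in Grow tumours, again high in Grow 3 and 4 alone.

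**Figure D3:**
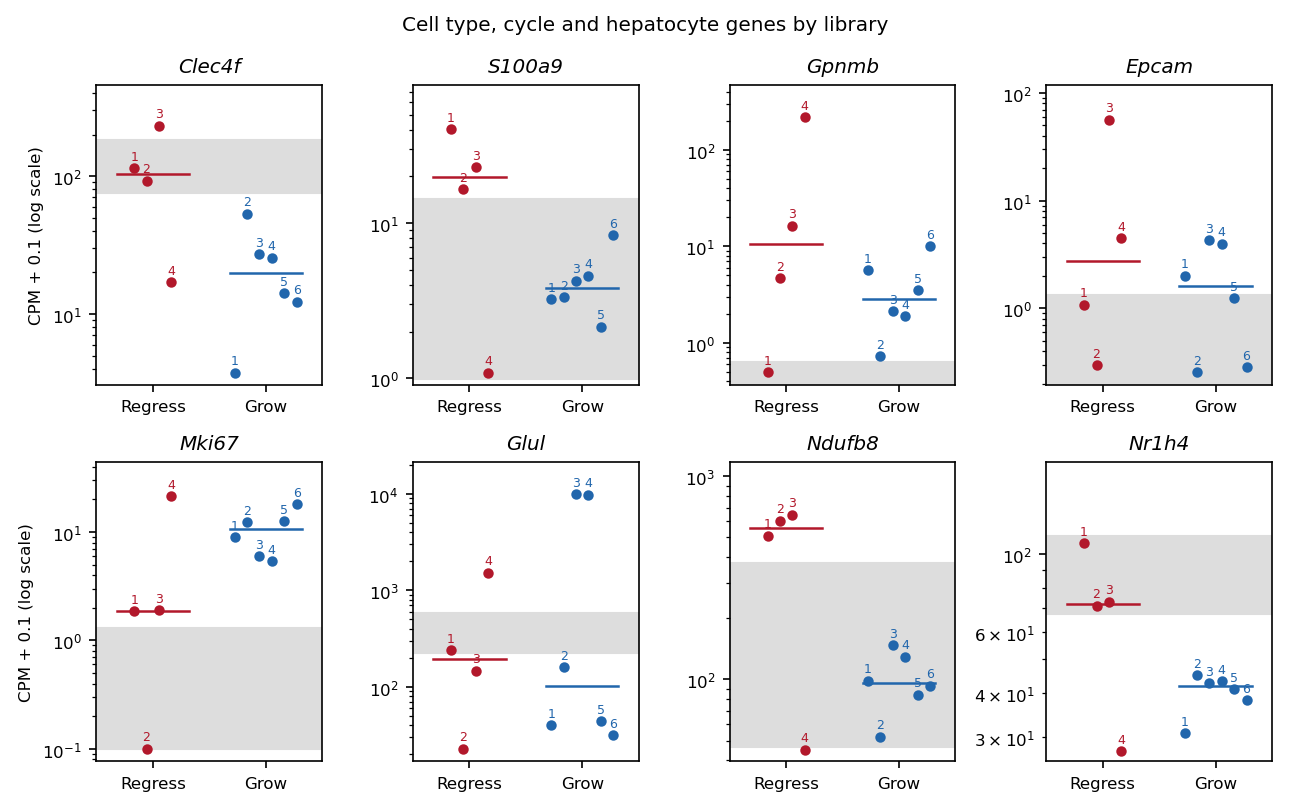
CPM plus 0.1 on a log scale for 8 genes of macrophages, neutrophils, ducts, the cell cycle, beta-catenin signalling and hepatocytes, drawn as points numbered by replicate for Regress (red) and Grow (blue) tumours, with group medians as lines and normal livers as a grey band. In Clec4f, S100a9, Ndufb8 and Nr1h4 Regress 1, 2 and 3 lie above every Grow tumour and Regress 4 does not, and in Mki67 that order is turned round.

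Among the members of 52 lists, 37 for programmes and 15 for types of cell, 0 were called in the fit of all tumours, while 1230 of 12300 genes had an unadjusted p under 0.05. The lists with the highest medians among those with at least 10 tested genes were the stellate cell (1.87), respiratory chain (0.71), senescence (0.68) and hypoxia lists (0.66). Those with the lowest were the beta-catenin (-1.26), mitosis (-0.57) and fatty acid synthesis lists (-0.43). The order of the lists depended on Regress 4 and on transcript length. Without Regress 4 the medians were 0.22 for stellate cell, 0.31 for senescence and 0.39 for hypoxia genes, and the highest were those of respiratory chain (0.98) and male-biased liver genes (0.98, against 0.63 with all tumours). The respiratory chain list had 0.10 with the length trend removed, and 0.26 without Regress 4 as well. On the lower side, beta-catenin genes had -2.18 and mitosis genes -1.70 without Regress 4. Next among lists with at least 10 tested genes came oncofetal markers (-0.835), NRF2 targets (-0.615), ERK output (-0.605) and fatty acid synthesis genes (-0.601). Medians between -0.4 and 0.4 were found for bile acid, amino acid, cytochrome P450, growth hormone and clock genes. Among glycolysis genes the isomerase Tpi1 was at 191, 509, 339.9 and 265 CPM in Regress and 174 to 317 (median 201) CPM in Grow tumours. The insulin receptor substrate Irs2 was at 7.29, 4.74, 1.55 and 12.4 CPM in Regress and 6.84 to 25.1 (median 9.64) CPM in Grow tumours. Cyp2b13, a female-biased cytochrome with near-identical relatives, was at 0, 23.1, 3.61 and 18.1 CPM in Regress and 17.7 to 82.3 (median 28.8) CPM in Grow tumours. The glutathione transferase Gstm1, an NRF2 target that is likewise uncertain, was at 578, 326, 411 and 929 CPM in Regress and 569 to 2179.5 (median 976) CPM in Grow tumours, and the folding factor Creld2 of the unfolded protein response at 8.47, 17.2, 14.2 and 21.3 CPM in Regress and 11.5 to 44.7 (median 29.6) CPM in Grow tumours. Markers of blood and pancreas overlapped between the groups. The erythroid enzyme Alas2 was at 135, 18.2, 29.6 and 16.2 CPM in Regress and 20.1 to 123 (median 65.8) CPM in Grow tumours, 7 of the 10 acinar markers were at 0 in all tumours, and the elastase Cela1, the only acinar marker tested, was at 61.7, 265, 329 and 67.0 CPM in Regress and 23.8 to 250.1 (median 78.7) CPM in Grow tumours. Bst2, the dendritic cell and interferon marker with the smallest p of its list, was at 262, 107, 183 and 91.1 CPM in Regress and 81.4 to 356 (median 125) CPM in Grow tumours.

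**Figure D4:**
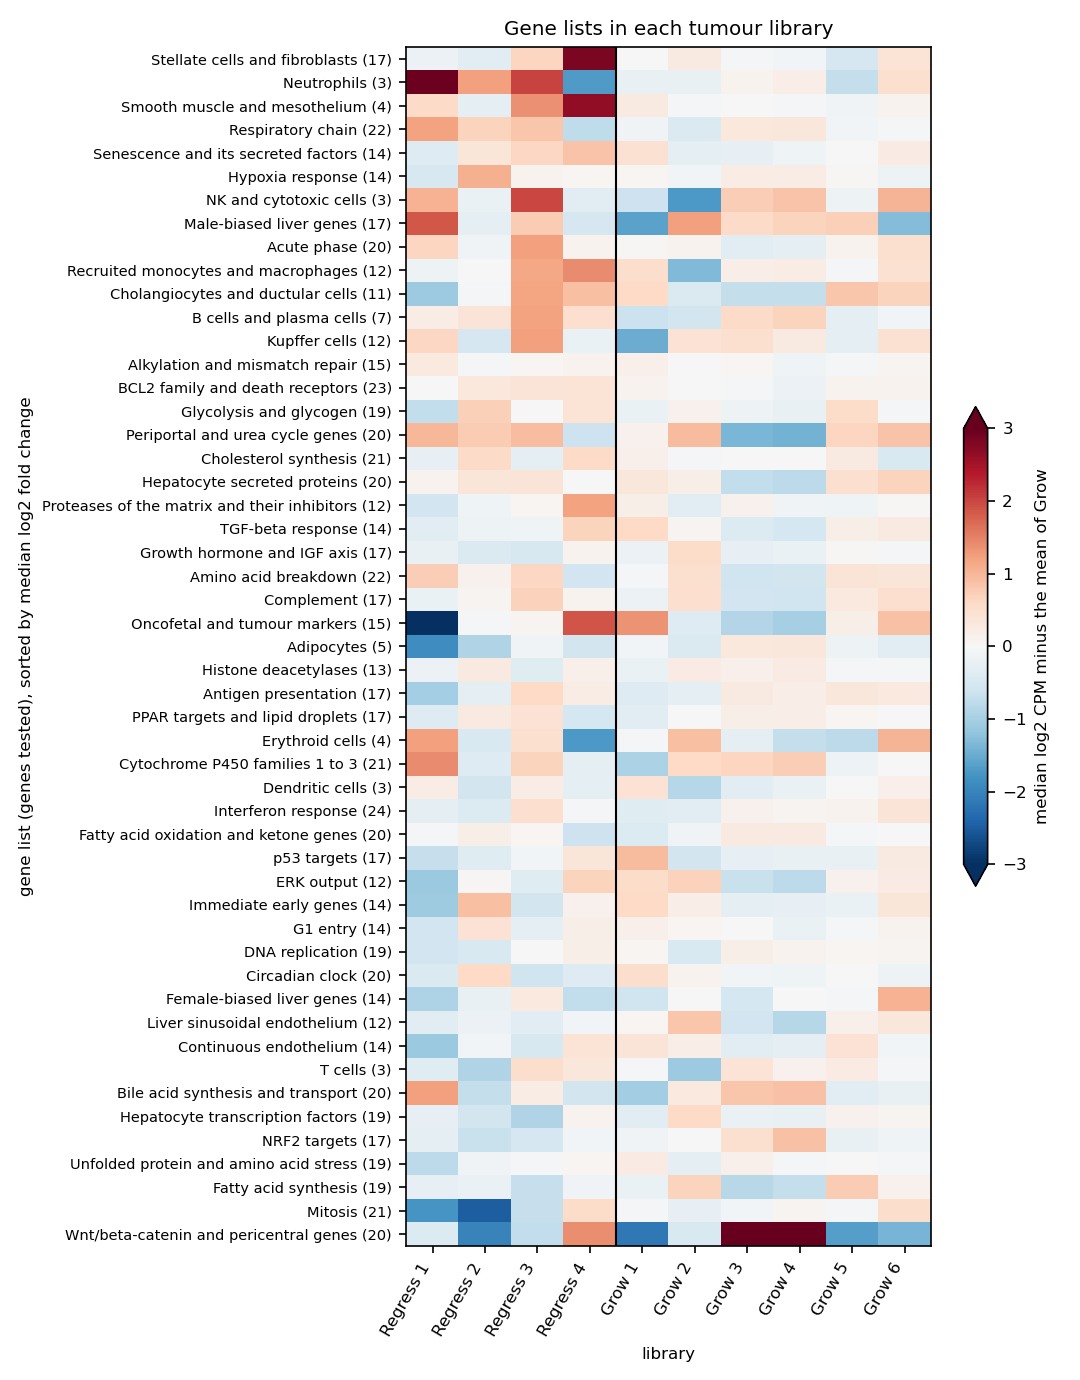
Median over the tested genes of each list of log2 CPM minus the mean of the 6 Grow tumours, for each tumour library, Regress left of the black line and Grow right of it. Lists with at least 3 tested genes are sorted by their median log2 fold change, and colours beyond 3 are cut off. Stellate cell genes stand out in Regress 4, neutrophil genes in Regress 1 to 3, mitosis genes are low in Regress 1 and 2, and beta-catenin genes are high in Grow 3 and 4.

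On the lower side the first gene by p was Dcun1d4, a factor of cullin neddylation. It stood at 16.5, 20.2, 15.97 and 21.3 CPM in Regress and 29.8 to 38.2 (median 31.8) CPM in Grow tumours (-0.82 ± 0.20 SE, adjusted p = 0.474), without overlap. The second was Hsph1, the heat shock protein HSP110 that recharges HSP70, at 8.08, 8.90, 5.41 and 17.8 CPM in Regress and 12.5 to 65.6 (median 33.9) CPM in Grow tumours (-1.88 ± 0.49 SE, adjusted p = 0.474). Regress 1, 2 and 3 lay below every Grow tumour and every normal liver (18.9 to 34.4 CPM), and Regress 4 lay among the lower Grow tumours. DESeq2 called these 2 genes lower, the only calls it made in that direction (adjusted p = 0.0351 for Dcun1d4 and 0.0485 for Hsph1). Genes induced with Hsph1 by the heat shock factor HSF1 were then looked up. Hsp90aa1, the inducible HSP90, was at 69.7, 58.9, 44.3 and 130.1 CPM in Regress and 81.7 to 256 (median 157) CPM in Grow tumours (-1.15 ± 0.39 SE, adjusted p = 0.474). The HSP40 Dnajb4 was at 17.1, 12.8, 11.6 and 21.7 CPM in Regress and 18.0 to 44.2 (median 26.1) CPM in Grow tumours (-0.90 ± 0.29 SE, adjusted p = 0.474), and the co-chaperone Bag3 at 12.6, 8.90, 6.18 and 26.2 CPM in Regress and 19.1 to 30.7 (median 21.8) CPM in Grow tumours. In Hsp90aa1, Dnajb4 and Bag3, Regress 1, 2 and 3 lay below every Grow tumour. The mitochondrial chaperonin Hspd1 was at 143, 131, 121 and 191 CPM in Regress and 180.2 to 239.8 (median 230.0) CPM in Grow tumours (-0.57 ± 0.26 SE, adjusted p = 0.49). Dnajb1, another HSP40, was at 25.0, 22.5, 23.2 and 23.6 CPM in Regress and 14.7 to 70.9 (median 38.2) CPM in Grow tumours, within the Grow range. The inducible HSP70 gene Hspa1b, whose reads may be split with its near copy Hspa1a, was at 4.73, 5.54, 1.29 and 10.6 CPM in Regress and 3.56 to 51.4 (median 13.1) CPM in Grow tumours. The constitutive chaperones Hsp90ab1, at 296, 479, 313 and 568 CPM in Regress and 446 to 769 (median 506) CPM in Grow tumours, and Hspa8, at 1355, 2119, 1018 and 782 CPM in Regress and 586 to 2176 (median 1592) CPM in Grow tumours, overlapped widely. Without Regress 4 edgeR gave adjusted p = 0.031 for Hsph1, 0.0374 for Hsp90aa1, 0.0439 for Dnajb4 and 0.0286 for Bag3. With the length trend removed as well, Bag3 was called (adjusted p = 0.0292) and Hsph1 (adjusted p = 0.0612), Hsp90aa1 (0.0758) and Dnajb4 (0.0612) were not. Grow 3 and 4 held the highest Hsph1, Hsp90aa1, Dnajb4, Dnajb1 and Hspa1b of all tumours.

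Promoters of these genes are shown because HSF1 binds a known element, repeats of GAA in alternating orientation spaced by any 2 bases. In RefSeq's promoter table (GRCm38.p6, 250 bases before and 50 after each start), 5 of the 8 heat shock genes searched had an entry, Bag3 not being searched. A pair of such repeats, GAANNTTC or TTCNNGAA on either strand, was present in 15.1% of the 32851 promoters, and 3 repeats in a row, GAANNTTCNNGAA or TTCNNGAANNTTC, in 0.603%. Hsph1 and Hspd1 each had a promoter with the longer form. The second listed start of Hsph1 is at chr5:149636266-149636565, minus strand, and that of Hspd1 at chr1:55087883-55088182, minus strand. They are printed from upstream to downstream with every pair in capitals, so that 3 repeats in a row appear as 1 longer run of capitals.
Hsph1: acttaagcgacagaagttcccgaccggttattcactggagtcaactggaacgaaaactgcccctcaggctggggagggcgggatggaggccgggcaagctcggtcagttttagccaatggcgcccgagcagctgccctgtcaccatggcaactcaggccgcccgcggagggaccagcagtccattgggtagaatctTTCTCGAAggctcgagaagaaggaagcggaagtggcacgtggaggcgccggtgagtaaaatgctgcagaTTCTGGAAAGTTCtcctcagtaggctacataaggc
Hspd1: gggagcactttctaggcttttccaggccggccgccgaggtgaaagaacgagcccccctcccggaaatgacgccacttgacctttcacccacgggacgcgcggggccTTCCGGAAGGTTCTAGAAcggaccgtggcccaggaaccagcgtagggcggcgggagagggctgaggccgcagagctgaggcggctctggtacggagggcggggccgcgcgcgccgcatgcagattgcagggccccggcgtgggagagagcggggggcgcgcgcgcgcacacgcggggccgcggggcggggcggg
In Hsph1 the longer form starts at base 266 of the 300 and a separate pair at base 197. In Hspd1 there are 2 overlapping copies, the first of which starts at base 107. The first listed promoter of Hspd1 held no pair, while both of Hsph1 held the longer form. Hspa1b had 1 pair and no longer form in its listed promoter. Neither listed promoter of Dnajb1 held a pair, and of those of Dnajb4 the first held none and the second 1 pair, without the longer form. A match describes the letters only and says nothing of binding in these tumours.

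The other genes named by p on the lower side are given next. The adhesion G protein-coupled receptor Adgrf5 was at 13.003, 13.4, 10.3 and 22.6 CPM in Regress and 21.4 to 45.3 (median 30.8) CPM in Grow tumours (-1.17 ± 0.32 SE, adjusted p = 0.474). The endoplasmic reticulum lectin Mlec was at 58.9, 37.0, 55.1 and 84.4 CPM in Regress and 77.4 to 146 (median 119) CPM in Grow tumours (-0.96 ± 0.27 SE, adjusted p = 0.474). Both have long transcripts, and with the length trend removed their log2 fold changes were -0.73 and -0.62. Of mitochondrial carriers, Slc25a30 was at 15.4, 14.8, 9.53 and 27.8 CPM in Regress and 25.3 to 49.4 (median 33.4) CPM in Grow tumours, with Regress 1, 2 and 3 below every Grow tumour. The glutamate carrier Slc25a22 was at 54.6, 40.3, 34.0 and 57.4 CPM in Regress and 57.2 to 104 (median 96.8) CPM in Grow tumours, where only Regress 4 overlapped. The acyl-CoA dehydrogenase Acad10 was at 15.8, 10.5, 12.1 and 10.4 CPM in Regress and 12.7 to 26.1 (median 23.6) CPM in Grow tumours, and the zinc finger gene Zfp9 at 0.591, 2.37, 1.80 and 2.68 CPM in Regress and 2.17 to 13.9 (median 7.71) CPM in Grow tumours. The endosomal protein gene Zfyve16 was at 5.12, 6.33, 6.18 and 6.35 CPM in Regress and 8.85 to 12.6 (median 9.79) CPM in Grow tumours, the Rab regulator Tbc1d8b at 25.8, 18.98, 23.7 and 25.5 CPM in Regress and 28.5 to 44.4 (median 37.4) CPM in Grow tumours. The ATPase Spata5 was at 2.36, 2.97, 2.06 and 3.81 CPM in Regress and 3.88 to 6.74 (median 5.69) CPM in Grow tumours, and the ARF activator Cyth1 at 14.0, 19.6, 16.2 and 16.5 CPM in Regress and 20.8 to 28.9 (median 25.1) CPM in Grow tumours. In the last 4 the groups did not overlap, at log2 fold changes from -0.95 for Spata5 to -0.60 for Cyth1. With the length trend removed the log2 fold change of Zfyve16 was -0.32, against -0.76 before.

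**Figure D5:**
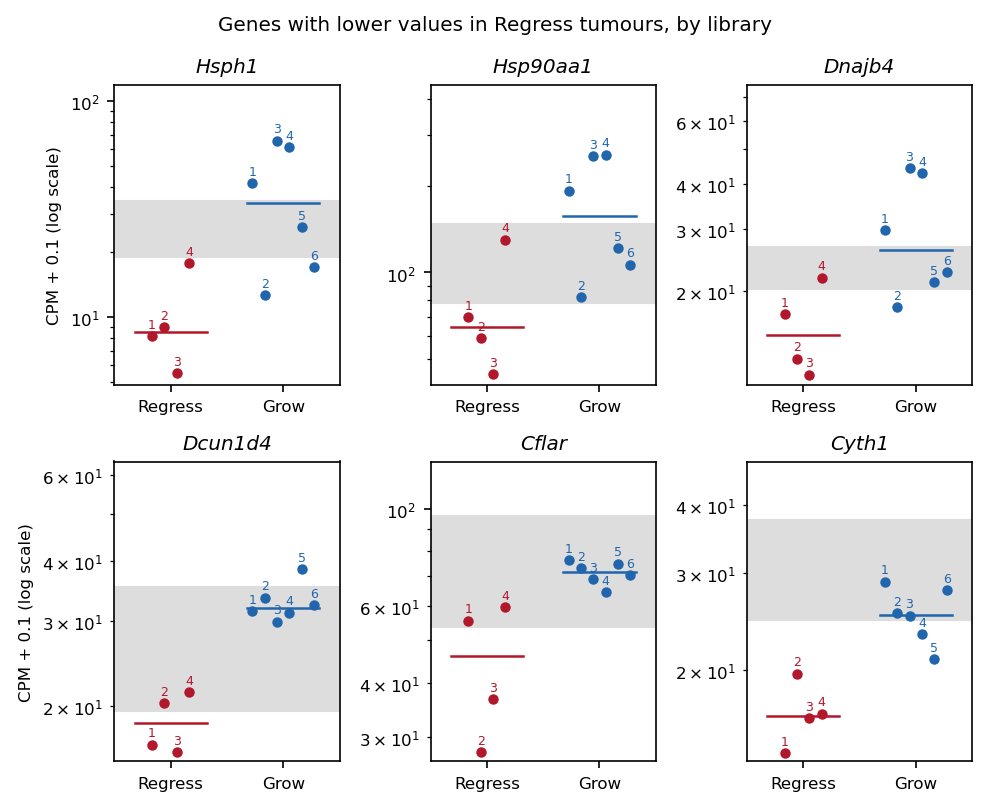
CPM plus 0.1 on a log scale for 6 genes with lower values in Regress tumours, with points numbered by replicate, Regress (red) left of Grow (blue), group medians as lines and the range of normal livers in grey. Dcun1d4, Cflar and Cyth1 have all Regress points below all Grow points, and in Hsph1, Hsp90aa1 and Dnajb4 Regress 4 overlaps the Grow tumours.

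Among the genes of cell death, 0 of 23 were called. Bok, a BAX-like effector, stood at 28.4, 74.5, 46.9 and 33.0 CPM in Regress and 15.8 to 25.9 (median 23.5) CPM in Grow tumours (1.04 ± 0.28 SE, adjusted p = 0.474). Cflar, which blocks caspase 8 at death receptors, was at 55.4, 27.7, 36.6 and 59.5 CPM in Regress and 64.4 to 76.1 (median 71.7) CPM in Grow tumours (-0.67 ± 0.24 SE, adjusted p = 0.474). Neither overlapped between groups, and without Regress 4 Bok was called higher (adjusted p = 0.0359) and Cflar lower (adjusted p = 0.0497), but neither was with the length trend removed (adjusted p = 0.125 and 0.0862). In the list, 3 of 23 genes were higher and 1 lower at an unadjusted p under 0.05, with a median of 0.24, beside 6.91% and 3.09% of all genes. The BH3-only gene Bmf was at 4.53, 4.15, 2.32 and 4.23 CPM in Regress and 0.757 to 4.80 (median 1.79) CPM in Grow tumours, all below the 7.88 to 23.9 CPM of normal liver. Among p53 targets, 0 of 17 reached an unadjusted p under 0.05. The cell cycle inhibitor p21 (Cdkn1a) was at 4.93, 39.3, 35.3 and 74.1 CPM in Regress and 16.9 to 55.8 (median 20.7) CPM in Grow tumours, and the stress gene Sesn1 at 18.1, 21.4, 21.4 and 12.4 CPM in Regress and 11.4 to 17.4 (median 14.8) CPM in Grow tumours. Gadd45a, a growth arrest gene that p53 and other stresses induce, was at 9.26, 12.7, 11.3 and 9.45 CPM in Regress and 2.398 to 6.04 (median 4.92) CPM in Grow tumours without overlap.

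Genes that bear on the drugs gave no calls in the fit of all tumours. MGMT (Mgmt), the enzyme that removes the methyl group TMZ adds to guanine, was at 29.9, 22.9, 27.6 and 9.31 CPM in Regress and 6.74 to 17.2 (median 13.7) CPM in Grow tumours (0.83 ± 0.41 SE, adjusted p = 0.491). Every Regress tumour but Regress 4 lay above all Grow tumours, TMZ-treated or not, and Regress 4 lay among the lower ones. The repair endonuclease Apex1 was at 13.003, 45.7, 21.6 and 21.3 CPM in Regress and 13.1 to 18.4 (median 15.7) CPM in Grow tumours. The log2 fold change of Apex1 was 0.73, and 0.35 with the length trend removed. Of 15 repair genes 2 were higher and 1 lower at an unadjusted p under 0.05, beside 6.91% and 3.09% of all genes. Without Regress 4, 1 repair gene was called higher and 2 lower, beside 4.77% and 5.21% of all genes. With the length trend removed as well, 0 were called. The SAHA target Hdac1 was at 23.2, 27.3, 29.1 and 21.9 CPM in Regress and 18.95 to 24.5 (median 22.1) CPM in Grow tumours, and over 13 deacetylase genes the median was -0.01. Within treatments, 0 genes were called between Regress 2 and 4 and Grow 1 and 5, which had no drug (323 at an unadjusted p under 0.05), and 0 between Regress 1 and 3 and Grow 2, 3 and 4, which had TMZ (2045). DESeq2 was not run within treatments. Dpt, Dcn, Lum and Des, which were named by their p over these same tumours, had the same direction in both. That choice favours such an outcome, so it is no separate support. The log2 fold change without drug and with TMZ was 3.58 and 2.60 for Dpt, 2.35 and 2.14 for Dcn, 4.63 and 1.99 for Lum, and 2.11 and 1.73 for Des. For Hsph1 it was -1.34 and -2.74. By contrast Col1a1 gave 4.04 without drug and -0.30 with TMZ, and Saa1 0.02 and 4.54, following Regress 4 and Regress 1. Col1a2 was also negative with TMZ, at -0.24. The difference between the 2 effects, tested as an interaction, was called for 0 of 12300 genes (596 at an unadjusted p under 0.05, lowest adjusted p 0.294). With the TMZ tumours of the Grow side also given SAHA and a lower dose, the drugs and the groups cannot be told apart there.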

How the data were processed

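RNA from 14 liver samples (4 Regress tumours, 6 Grow tumours, 4 normal livers) was extracted with Qiagen RNeasy and sequenced from TruSeq RNA v2 libraries, which do not mark strand, per the labels' protocols. The deposited values are estimated counts per RefSeq transcript, per the file headers and the values. Salmon 0.3.1, edgeR 3.14.0 and the mm9 build are named in the submitters' processing notes, and their roles and any filters are not stated there. 1 deposited column held no values and was not used. Rows were summed per gene symbol and rounded to whole counts. Rows without a symbol, 3.52% to 9.63% of the counts in Regress and 3.76% to 9.39% in Grow tumours, were kept under their own identifier. Reads of near-identical copies (Mup, Saa, Cyp2b, Hspa1a and Hspa1b) may be split between them.

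Genes were filtered with filterByExpr, scaled by TMM and tested with edgeR 4.0.16 (quasi-likelihood, all 3 groups in the fit) in R 4.3.3. A Benjamini-Hochberg adjusted p under 0.05 was a call. A prior count of 2 entered the log2 CPM, not the main test. Unpaired groups were used, since the labels give no pairing. CPM (edgeR cpm) use TMM-scaled library sizes, and the SE of a log2 fold change is its size divided by the root of F. The biological coefficient of variation was 0.484. DESeq2 1.42.0, limma 3.58.1 (voom), other scalings, a replicate block, removal of a loess trend (span 0.5) on transcript length, and single libraries left out were among 29 alternatives, with 6 more fits added after the data were seen. Genes were named as the 12 with the smallest p in each direction (mean log2 CPM of at least 1, no predicted genes), the member with the smallest p in each of 52 lists, and 12 fixed genes; others were chosen after their values were seen. A few of these genes are not reported here. The lists hold 851 genes, 14 of them without a row. The comparison and the lists were chosen with earlier results of these data known. Promoters and transcript lengths were taken from reference tables. The code was tested on simulated data. Precision is limited by the spread among the few tumours of each group, and by the library sizes printed with the results.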

Additional observations from a re-analysis of the deposited data

Results flagged for a closer look

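In 246 groups of named genes examined for a single sample far from the rest of its group, 15 samples stood apart, and chance alone flags about 1 in 20 groups. Regress 4 did so 6 times. It was the lowest of its group for Ndufb8 (45.0 CPM), Bnip3 (45.7 CPM), Ass1 (479 CPM) and Clec4g (16.9 CPM), and the highest for Cygb (36.7 CPM) and Aspm (3.95 CPM). Regress 1 was the lowest of its group for Alb (50742 CPM) and Zfyve16 (5.12 CPM), and Regress 3 for Bmf (2.32 CPM). Among the Grow tumours, Grow 1 was the lowest for Acad10 (12.7 CPM) and Asl (76.3 CPM), Grow 2 for Cdk1 (2.94 CPM) and Mmp12 (2.63 CPM), Grow 3 for Fuca2 (7.57 CPM) and Grow 6 for Gadd45a (2.398 CPM). The cause of these values was not tested.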

How the results depend on the processing

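The count of called genes was 0 in every alternative except those named here. DESeq2 called 31 (29 higher, 2 lower) and limma-voom with sample weights 2951 (1352 higher, 1599 lower), the weights giving Regress 4 the lowest weight. Leaving out 1 library gave 0 to 1249 calls (0 to 597 higher, 0 to 652 lower), all nonzero values from Regress 4. Further fits without Regress 4 gave 317 calls with the length trend removed (237 higher, 80 lower), 981 without Regress 1 (482 and 499), 41 without Regress 2 (30 and 11), 3 without Regress 3 (2 and 1), 1301 with Grow 3 and 4 summed (641 and 660) and 1723 without normal livers in the fit (845 and 878). Genes free of overlap numbered 52 to 1316 above and 87 to 1530 below when 1 Regress library was left out. With the length trend removed they numbered 49 above and 31 below, of which 12 and 10 were among the 46 and 67 found before.

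With a replicate block 0 genes were called (170 at an unadjusted p under 0.05). Deviations of samples of the same number from their group means correlated at -0.332, -0.142, 0.197 and -0.37. Those tumours also differ in drug and in other respects, so this check cannot exclude that the numbers pair samples.

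Log2 fold changes that turned sign were as follows. Without the Grow tumours given SAHA they were -0.11 for Afp, 0.51 for Alas2, 3.26 for Axin2, 0.69 for Bst2, -0.012 for Cdkn1a, 2.67 for Cyp4a14, 0.13 for Dusp6, 3.504 for Glul, 2.43 for Lgr5, 3.57 for Oat and 0.14 for Znrf3. Among tumours given no drug they were 0.33 for Aspm, 4.08 for Axin2, 0.084 for Ccnd1, -0.15 for Cldn7, 3.20 for Cyp4a14, 0.55 for Dusp6, 4.20 for Glul, 0.10 for Gpc3, 0.048 for Hsp90ab1, 0.049 for Kif20a, 3.22 for Lgr5, 0.0019 for Mki67, 1.70 for Oat, 0.16 for Pparg and 0.31 for Znrf3. Among tumours given TMZ they were -0.87 for Afp, 0.32 for Alb, -0.30 for Col1a1, -0.24 for Col1a2 and 0.67 for Cps1. With TMZ as a covariate they were 1.08 for Axin2, 1.78 for Glul and 0.46 for Lgr5. Under the replicate block they were 0.68 for Alb, 1.79 for Cps1, 0.81 for Gpc3, -0.13 for Mup1 and 0.14 for Spry4. With limma-voom they were -0.88 for Afp, 0.11 for Alb and 0.84 for Cps1, and with sample weights -0.65 for Afp, 0.22 for Bst2, -0.33 for Col1a1, 0.073 for Glul, 0.070 for Hspa8 and 1.08 for Oat. Removing the length trend gave 0.45 for Cps1, and without Regress 4 as well -0.47 for Afp, -0.59 for Cdkn1a, -0.11 for Col1a1, 0.68 for Cps1 and -0.38 for Igfbp7. Summing Grow 3 and 4 gave 0.051 for Bst2. Over single libraries left out, the range was -0.24 to 1.29 for Afp, -0.43 to 0.0029 for Alb, -0.56 to 0.068 for Bst2, -0.064 to 0.84 for Cdkn1a, -0.86 to 3.60 for Col1a1, -0.26 to 3.21 for Col1a2, -0.42 to 0.10 for Cps1, -0.35 to 0.12 for Dusp6, -0.027 to 3.38 for Epcam, -1.82 to 0.31 for Gpc3, -0.48 to 0.029 for Hspa8, -0.60 to 2.90 for Krt19 and -0.47 to 6.07 for Mup1. The cause was not tested. The other 3430 values kept their direction and side of the threshold, and 162 of the same direction passed it.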
